A study of Mus musculus with 3 samples.

Results

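The genes described here are 39 mouse genes of TGF-beta and BMP signalling: ligands, receptors, extracellular binding proteins and antagonists, Smad proteins, and genes that the pathways induce. They were given as a list of names, and each was matched to the array's probes through the RefSeq accession of the probe. All 39 were found, among 20825 named genes, and 36 of the 39 were well above background on all 3 arrays. The arrays measured RNA of tail-tip fibroblasts (TTFs) on day 8 after 4 reprogramming factors, Oct4, Sox2, Klf4 and c-Myc, had been introduced, so every group had received the same factors. The young WT array held cells of wild-type mice aged 2 months, the old WT array cells of wild-type mice aged 22 months, and the old p16-/- array cells of mice aged 22 months that lack p16, a cell-cycle inhibitor encoded by the Cdkn2a locus. The study's design mentions 2 independent experiments with different donors. Each group had 1 array here, and the labels do not say how many mice stand behind it or how the factors were introduced. No group therefore has a measured spread between donors, no test between groups was possible, and differences are described by size only.

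TGF-beta and activin ligands bind paired type I and type II receptor kinases that phosphorylate Smad2 and Smad3, whereas BMP ligands act through other type I receptors on Smad1, Smad5 and Smad9. Both sets of receptor Smads enter the nucleus with Smad4, and the inhibitory Smads, Smad6 and Smad7, dampen the signal. In fibroblasts TGF-beta is known for inducing matrix and contractile genes, BMP signalling is known for inducing the Id genes, and during reprogramming of mouse fibroblasts the former is known to hinder and the latter to favour the mesenchymal-to-epithelial transition of the early phase. For the comparison of the pathways, 17 members were assigned to a TGF-beta and activin arm and 18 to a BMP arm, and 4 shared or unassigned genes (Acvr2a, Smad4, Smad7 and Gdf10) were put in neither.

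A signal below is the deposited background-corrected intensity of a gene's brightest probe, in linear units without scale between genes. A ratio is the difference of log2 signals after each array was scaled to its 75th percentile, which was 2338 (young WT), 2255 (old WT) and 2243 (old p16-/-). Ratios therefore differ slightly from the quotient of the signals. A gene was counted where at least 1 of the compared arrays was well above background, and its ratio is a bound ("at least") where only 1 was. Among probes spotted 10 times on each array, the ratio of single spots had an SD of at most 0.0796 on the log2 scale for probes above background, which covers spot error and not the spread between mice. Of spots of probes mostly not above background, 4.75%, 6.28% and 4.93% were nevertheless marked as above it, with signals up to 870, so 8 members that stayed below a signal of 1000 on every array (Bmp2, Bmp5, Bmp7, Nog, Smad1, Smad9, Acvr2a and Gdf10) are the least certain. All 10 fibroblast markers were above background on every array. Signal of the Y-linked Eif2s3y (6819) and Ddx3y (3949) came from the young WT array only, and that of Xist from the arrays of old WT (1548) and old p16-/- cells (1387) only, so sex and age cannot be told apart in any comparison with young WT. Cdkn2a gave signals of 62705, 65464 and 28065, but whether its probe lies in the deleted part is unknown, so it does not check the p16-/- label.

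Between old and young WT cells, the members that stood furthest apart were BMP ligands and a latent TGF-beta binding protein, and all of these were higher in old cells: Bmp4, Ltbp2, Bmp2 and Bmp5. These 4 of 39 members were at least 2-fold higher, 1 of them as a bound, and 0 were at least 2-fold lower. Over all 14550 genes counted in that comparison, 2.89% were higher by that size and 3.22% lower, or 6.11% in either direction. Between old p16-/- and old WT cells, Inhbb, Tgfb3 and Ltbp2, all of the TGF-beta and activin arm, were at least 2-fold lower and Bmp7 at least 2-fold higher. Those 4 of 39 members are 10.3%, against 12.5% of 14695 genes in either direction (5.97% higher and 6.51% lower), so the number of members past 2-fold was close to the background. Between old p16-/- and young WT cells, 4 of 38 members counted were higher by 2-fold or more and 5 lower, against 6.36% higher and 6.95% lower (13.3% in either direction) over 14283 genes. Each pair of comparisons shares an array, so their ratios are given side by side and are not independent of each other. In these bulk RNA samples, fewer cells of a type and less RNA per cell cannot be told apart.

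**Figure D1:**
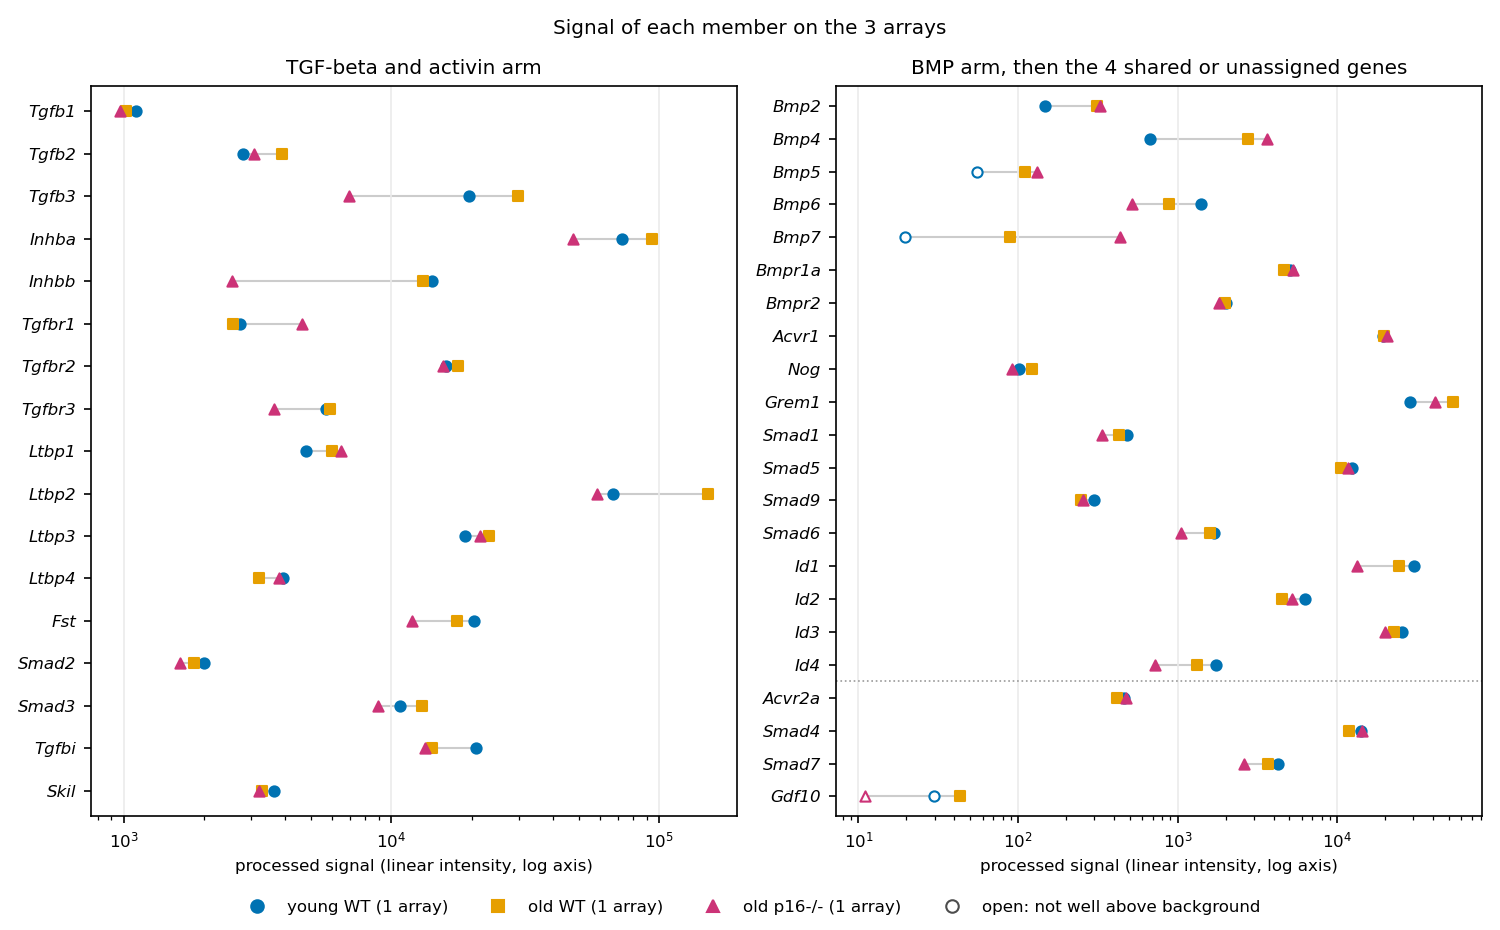
Processed signal (log axis) of the brightest probe of each of the 39 members in young WT, old WT and old p16-/- cells, 1 array per group, with open symbols where the probe was not well above background. Inhbb and Tgfb3 lie apart on the old p16-/- array, Ltbp2 on the old WT array, and Bmp4 and Bmp7 are lowest on the young WT array; positions of different genes are not to be compared.

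Among the 3 TGF-beta ligands, Tgfb3 differed most. Its signal was 19517 in young WT, 29714 in old WT and 6917 in old p16-/- cells. It was thus highest in old WT and lowest in old p16-/- cells, with log2 ratios of 0.66 for old over young WT, -2.10 for old p16-/- over old WT (4.27-fold lower) and -1.44 for old p16-/- over young WT. Tgfb2 had the same order of old WT over the other arrays, at signals of 2795, 3910 and 3072 and ratios of 0.54 and -0.34 in the first and second comparison. Tgfb1, the ligand studied most in fibroblasts, differed little, with signals of 1114, 1018 and 970 and ratios of -0.08 and -0.06.

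The activin genes encode the beta A and beta B chains that pair into activins, which share Smad2 and Smad3 with TGF-beta. Inhbb, the beta B chain, gave signals of 14238 in young WT, 13099 in old WT and 2548 in old p16-/- cells. The WT arrays were close (log2 ratio -0.07) and the old p16-/- array stood apart, 5.11-fold below old WT (-2.35) and 5.36-fold below young WT (-2.42). Of all genes counted, 2.72% differed by more than Inhbb between old p16-/- and old WT cells. Inhba, the beta A chain, read 72649, 94237 and 47726, again lowest in old p16-/- cells, with ratios of 0.43 and -0.97. Its second ratio lay just inside 2-fold and passed it under quantile normalization (-1.06) and cyclic loess (-1.09). Fst, which encodes follistatin, a secreted protein that binds and blocks activins, was also lowest in old p16-/- cells, at 20395, 17638 and 11974 (ratios -0.16 and -0.55). The 250 bases before the start site of Inhbb, the member with the lowest ratio to old WT, are printed from RefSeq (build GRCm38.p6, chr1:119422249-119422498, minus strand). The capitals mark GTCT or its reverse complement AGAC, the core letters of a Smad-binding element, found 2 times.
Inhbb: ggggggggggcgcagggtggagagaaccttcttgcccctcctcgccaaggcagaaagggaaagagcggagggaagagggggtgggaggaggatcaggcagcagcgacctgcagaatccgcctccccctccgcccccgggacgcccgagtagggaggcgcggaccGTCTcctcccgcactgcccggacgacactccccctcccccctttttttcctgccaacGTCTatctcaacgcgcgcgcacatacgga

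The receptors of this arm differed less. Tgfbr1, the type I receptor kinase, read 2720, 2551 and 4644, so that the old p16-/- array was above the WT arrays, with ratios of -0.04, 0.87 and 0.83 in the 3 comparisons. The other probe of Tgfbr1 was dimmer, at 99.3, 117 and 157, and gave 0.29, 0.43 and 0.72. Tgfbr2, the type II receptor, read 15956, 17765 and 15562 (0.21 and -0.18), and its old p16-/- over young WT ratio of 0.02 turned negative under 4 alternatives. Tgfbr3, betaglycan, a co-receptor that presents TGF-beta to its receptors, was lowest in old p16-/- cells at 5694, 5905 and 3634 (0.10 and -0.69).

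Latent TGF-beta binding proteins tether the inactive ligand to the matrix, although Ltbp2 is known as a matrix protein that does not bind latent TGF-beta. Ltbp2 signals were 66986 in young WT, 151843 in old WT and 58755 in old p16-/- cells. The old WT array alone was high, 2.35-fold above young WT (1.23) and 2.57-fold above old p16-/- (-1.36), while old p16-/- and young WT cells differed by -0.13. Ltbp1 (4803, 5988 and 6467) and Ltbp3 (18906, 23176 and 21408) were slightly lower in young WT cells, with old over young WT ratios of 0.37 and 0.35. Ltbp4 read 3949, 3193 and 3790, and its probes disagreed between old p16-/- and old WT cells, at 0.26 for the brighter and -0.17 for the other. The sequence before the Ltbp2 start site (GRCm38.p6, chr12:84876492-84876741, minus strand) is shown because Ltbp2 was the only member of its arm at least 2-fold apart between old and young WT cells. The sequence holds 4 matches to GTCT or AGAC, in capitals.
Ltbp2: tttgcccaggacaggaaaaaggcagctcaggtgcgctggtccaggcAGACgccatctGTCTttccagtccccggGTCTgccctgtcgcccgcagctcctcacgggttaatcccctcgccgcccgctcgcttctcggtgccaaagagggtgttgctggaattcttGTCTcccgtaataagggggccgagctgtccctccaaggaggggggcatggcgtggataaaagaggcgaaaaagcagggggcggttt

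The receptor Smads of the arm, Smad2 and Smad3, carry the signal to the nucleus. Smad2 read 1998, 1830 and 1626 (-0.07 and -0.16) and Smad3 10811, 12972 and 8936 (0.31 and -0.53). A second, dimmer Smad3 probe gave 0.42 and -0.17, and 0.25 between old p16-/- and young WT cells where the brighter one gave -0.22. Tgfbi, a matrix protein named for its induction by TGF-beta, was highest in young WT cells at 20631, against 14152 in old WT and 13401 in old p16-/- cells (-0.49 and -0.07). Skil, a Smad repressor that TGF-beta itself induces, differed little at 3633, 3289 and 3214 (-0.09 and -0.03).

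In the BMP arm, 4 of the 5 ligands had a log2 ratio above 0 in old over young WT cells (all genes: 45.4%) and 4 of 5 in old p16-/- over old WT cells (all genes: 53.4%). Bmp4, a ligand with roles in mesoderm and skin, gave signals of 669 in young WT, 2747 in old WT and 3636 in old p16-/- cells. Young WT cells were low and the old arrays were within 0.41 of each other on the log2 scale, and Bmp4 was 4.25-fold higher in old than young WT cells (2.09) and 5.66-fold higher in old p16-/- than young WT cells (2.50). Of all genes counted, 1.95% differed by more than this between old and young WT cells. These values rest on 1 of the 2 Bmp4 probes, since the other was not above background on any array. Bmp2, the closest relative of Bmp4, read 148, 313 and 325 in the same order of arrays (ratios 1.14, 0.06 and 1.20). Under a background correction with an offset of 50 its ratios to young WT cells were 0.76 (old WT) and 0.83 (old p16-/-). The sequence before the Bmp4 start site (GRCm38.p6, chr14:46390670-46390919, minus strand) is shown because Bmp4 had the largest ratio of any member in old over young WT cells. The sequence holds 1 AGAC, in capitals.
Bmp4: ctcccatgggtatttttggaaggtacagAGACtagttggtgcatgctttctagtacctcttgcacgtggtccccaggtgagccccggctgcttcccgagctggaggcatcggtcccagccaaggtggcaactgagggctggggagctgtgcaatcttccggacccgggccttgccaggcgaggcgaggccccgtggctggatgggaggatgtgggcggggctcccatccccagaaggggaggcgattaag

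Bmp5 and Bmp7, relatives in 1 subgroup of BMP ligands together with Bmp6, were not above background in young WT cells. Bmp7 signals were 19.5 in young WT, 88.5 in old WT and 436 in old p16-/- cells. Old p16-/- cells were the highest, 4.96-fold above old WT (2.31) and at least 8.21-fold above young WT (3.04), and old WT cells were at least 1.66-fold above young WT (0.73). With the offset of 50 the log2 ratios of Bmp7 were 1.67 to old WT and, as a bound, 2.21 to young WT. Bmp5 read 55, 111 and 131, at least 2.07-fold higher in old than young WT cells (1.05) and 0.25 apart between the old arrays; its first ratio was 0.44 with the offset of 50. Bmp6 had the opposite order, 1403 in young WT, 889 in old WT and 515 in old p16-/- cells, with ratios of -0.61, -0.78 and -1.39. Of the 5 BMP ligands among the 39 genes, Bmp6 was the one with its highest signal in young WT and its lowest in old p16-/- cells.

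The 3 BMP receptors among the 39 genes differed by at most 0.21 on the log2 scale. Bmpr1a, a type I receptor, read 5050, 4614 and 5314 (-0.08, 0.21 and 0.13), and Bmpr2, the type II receptor, 2024, 1975 and 1809 (0.02, -0.12 and -0.10). Acvr1, the type I receptor also called ALK2, read 19419, 19617 and 20559 (0.07, 0.08 and 0.14). Grem1 and Nog encode gremlin 1 and noggin, secreted proteins that bind BMP ligands. Grem1 was highest in old WT cells, at 28783, 52964 and 41303, with ratios of 0.93, -0.35 and 0.58, the first just inside 2-fold. Nog was dim and had the same highest array, at 102, 122 and 92 (0.32 and -0.40).

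The Smads of the BMP arm differed little between old and young WT cells. Smad5, at signals of 12409, 10519 and 11717, had ratios of -0.19 and 0.16, Smad9 (298, 250 and 256) of -0.20 and 0.04, and Smad1 (483, 430 and 335) of -0.12 and -0.35. The probes of Smad1 disagreed in the first comparison, where the other, dimmer one gave 0.34, and it gave -0.35 in the second. Smad6, the inhibitory Smad that BMP signals induce, was lowest in old p16-/- cells at 1698, 1595 and 1057 (-0.04 and -0.59).

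The Id genes encode helix-loop-helix proteins that bind and block other such factors and are direct BMP targets. All 4 were below 0 in old over young WT cells and in old p16-/- over young WT cells, and 3 of 4 in old p16-/- over old WT cells, under each of the normalizations tried. The shares of all genes below 0 were 51.9%, 44.7% and 45.2% in the same order of comparisons. Id1 was highest in young WT cells at 30428, lower in old WT cells at 24430 and lowest in old p16-/- cells at 13366, with ratios of -0.27, -0.86 and -1.13. Id4 had the same order, at 1739, 1315 and 718 (-0.35, -0.86 and -1.22). Id3 differed less, at 25520, 22765 and 19878 (-0.11, -0.19 and -0.30), and Id2 was lowest in old WT cells, at 6289, 4483 and 5213 (-0.44, 0.23 and -0.21). The order of Id1, Id3 and Id4 across the arrays was thus opposite to that of Bmp4 and Bmp7, which were lowest in young WT cells, and like that of Bmp6. Bmp2 and Bmp5 were also lowest in young WT cells. Their log2 ratios between the old arrays were only 0.06 and 0.25, so the order of those arrays is uncertain for them. The sequence before the Id4 start site (GRCm38.p6, chr13:48260866-48261115, plus strand) is shown because Id4 had the lowest ratio of the Id genes. It holds no GTCT or AGAC, and the capitals mark its 1 match to GGCGCC, the core letters of a BMP response element.
Id4: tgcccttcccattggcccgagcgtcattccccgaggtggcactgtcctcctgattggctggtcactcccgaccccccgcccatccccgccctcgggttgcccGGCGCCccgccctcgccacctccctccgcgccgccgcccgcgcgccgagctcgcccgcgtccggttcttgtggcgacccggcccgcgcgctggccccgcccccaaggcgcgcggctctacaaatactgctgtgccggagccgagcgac

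Of the genes in neither arm, Smad4, the partner of all receptor Smads, read 14126, 11892 and 14265 (-0.20 and 0.27), and Acvr2a, a type II receptor of activins and BMPs, 464, 415 and 473 (-0.11 and 0.20). The other Acvr2a probe was above background in old WT cells only and gave bounds of the opposite sign, 0.55 and -0.65. Smad7, which blocks the receptors of both arms, was lowest in old p16-/- cells at 4269, 3713 and 2597 (-0.15, -0.51 and -0.66). Gdf10, also called BMP3B, was above background only in old WT cells, at a signal of 43.1, and gave no fold in any comparison.

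Set against each other, the arms differed little in their medians. The TGF-beta and activin arm had a median log2 ratio of 0.10 in old over young WT cells, -0.18 in old p16-/- over old WT cells and -0.14 in old p16-/- over young WT cells. The BMP arm had -0.06, -0.04 and -0.09, so that its median minus that of the TGF-beta arm was -0.16, 0.14 and 0.05. Over all genes counted the medians were -0.01, 0.03 and 0.03. In old p16-/- over old WT cells, 14 of 17 members of the TGF-beta and activin arm and 9 of 18 of the BMP arm were below 0, against 45.2% of all genes; the first count was 13 with centring on array medians. The BMP arm held members far from 0 in both directions in old p16-/- over young WT cells, with 4 at least 2-fold higher (Bmp7, Bmp4, Bmp5 and Bmp2) and 3 at least 2-fold lower (Bmp6, Id4 and Id1). In the same comparison the TGF-beta and activin arm held 0 at least 2-fold higher and 2 lower (Inhbb and Tgfb3). In old p16-/- over old WT cells its mean was further from 0 than its median (-0.49, against a mean of -0.04 for the BMP arm). Inhbb (-2.35) and Tgfb3 (-2.10) lay far below the rest there, followed by Ltbp2 (-1.36) and Inhba (-0.97).

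**Figure D2:**
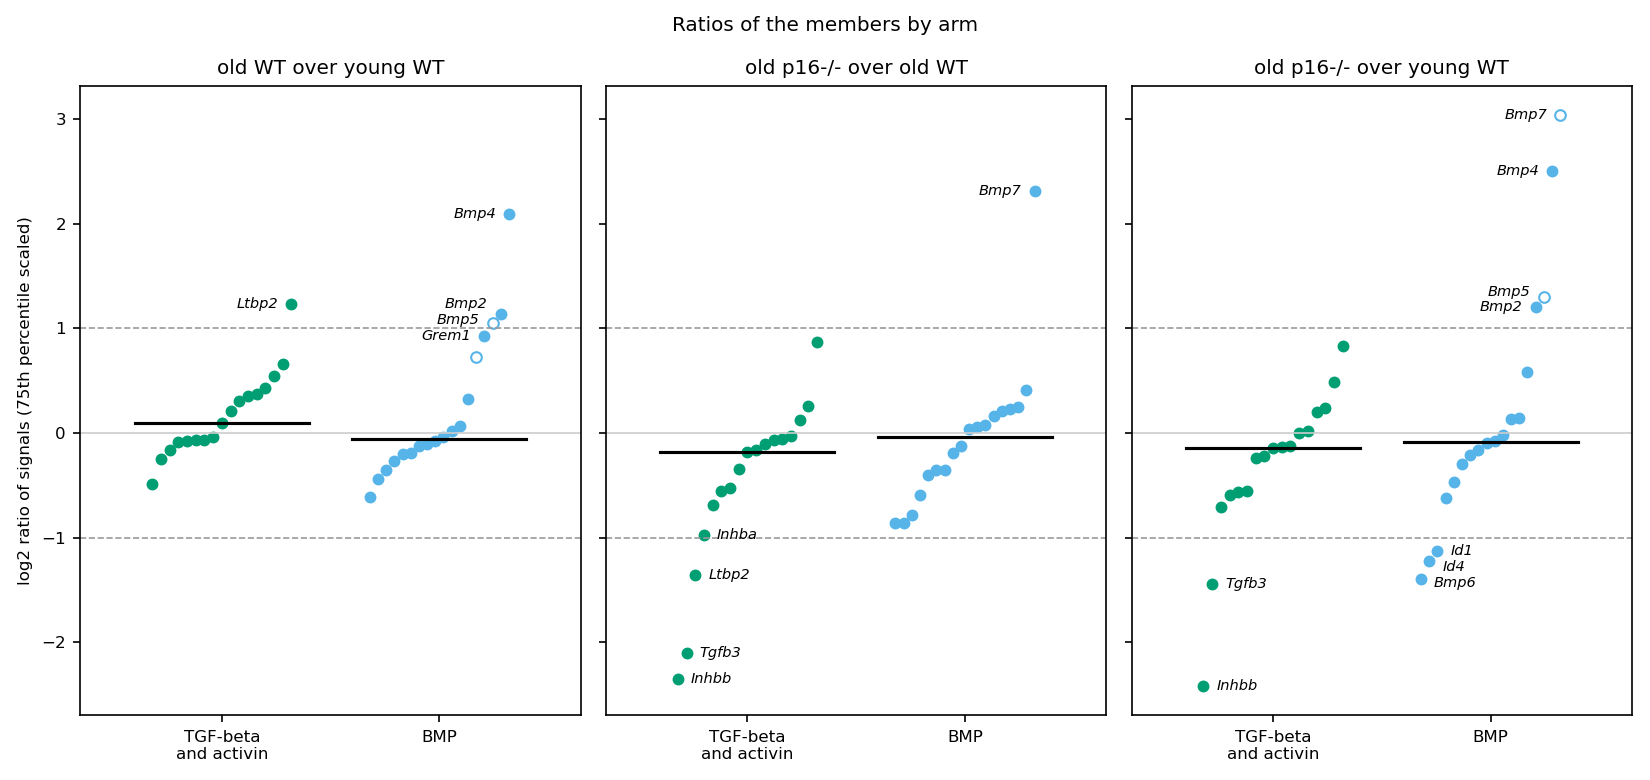
Log2 ratios of the members of each arm (17 of the TGF-beta and activin arm, 18 of the BMP arm) in the 3 comparisons, 1 array per group; points are genes, open points are bounds, black lines are arm medians and dashed lines mark 2-fold. The medians lie between -0.18 and 0.10, while single genes reach from -2.42 (Inhbb) to 3.04 (Bmp7, a bound).

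Of the 39 members, 31 reached a signal of 1000 on some array. Among members that reached it on the brighter array of a comparison, 2 of 31 were at least 2-fold higher in old than young WT cells (Bmp4 and Ltbp2), against 1.16% of 8717 genes, and 0 lower, against 0.574%. In old p16-/- over old WT cells 3 of 30 such members were at least 2-fold lower (Inhbb, Tgfb3 and Ltbp2), against 4.17% of 8835 genes, and 0 higher, against 2.71%. In old p16-/- over young WT cells 5 of 31 were at least 2-fold lower and 1 higher, against 4.18% and 3.42% of 8871 genes. The members lower there were Inhbb, Tgfb3, Bmp6, Id4 and Id1, and the member higher was Bmp4. For 11 members at least 2 probes were above background on all arrays. Their probes had the same sign for 9 of 11 members in old over young WT cells and 9 of 11 in old p16-/- over old WT cells, with gaps of up to 0.45 and 0.44 on the log2 scale. In old p16-/- over young WT cells it was 8 of 11, with a gap of up to 0.50. None of Inhbb, Tgfb3, Ltbp2, Bmp2, Bmp5, Bmp6, Bmp7, Id1 and Id4 had more than 1 probe.

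Promoter sequence was at hand for 28 of the 39 members, as 34 windows of 300 bases (250 before and 50 after a start site; 2 windows of Ltbp4 overlap each other, as do 2 of Smad5). Both strands were searched. GTCT or AGAC was found in 29 of 34 windows (85.3%), against 88% of 32851 promoters of that length. GGCGCC was found in 13 of 34 (38.2%, against 11.9%) and CACGTG, the E-box letters, in 3 of 34 (8.82%, against 7.15%). The members' windows were also richer in G and C, with a median of 64.7% against 52.7%. A match describes the letters in the window, and no factor binding was measured.

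The other genes of the pathways were taken from lists of 99 genes, of which 98 were on the array and 83 were counted in each comparison. In old over young WT cells 1 was at least 2-fold higher and 3 were lower; in old p16-/- over old WT cells 3 were higher and 15 lower. These 18 of 83 are 21.7%, against the 12.5% of all genes given above. Among 16 TGF-beta target genes, 7 were at least 2-fold lower in old p16-/- than old WT cells (all genes: 6.51%) and 0 higher, with a median of -0.41 (all genes: 0.03). Of the 16, 15 were below 0 (14 with centring on array medians) in that comparison (all genes: 45.2%), and 13 were above 0 in old over young WT cells (all genes: 45.4%), where the median was 0.25 (all genes: -0.01).

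Ankrd1, a nuclear cofactor induced in stressed muscle, read 3217 in young WT, 4016 in old WT and 636 in old p16-/- cells (0.37 and -2.65). The old p16-/- array was low and the WT arrays were close, as for Inhbb. Il11, a cytokine that TGF-beta induces in fibroblasts, read 9117, 10709 and 2859 (0.28 and -1.90). The contractile genes Acta2 (148230, 165017 and 42072), Tagln (128345, 146254 and 43484) and Cnn1 (42791, 57018 and 16578) had the same order, with old p16-/- over old WT ratios of -1.96, -1.74 and -1.77. The matrix genes on the same list differed less, such as Col1a1 at -0.29, Col1a2 at -0.04 and Col3a1 at 0.12. Acta2, Tagln and Cnn1 are also smooth muscle markers. The BMP target genes had 9 of 11 counted and none at least 2-fold apart in old p16-/- over old WT cells, where 8 of 9 were below 0 (median -0.30, against 45.2% below 0 and a median of 0.03 over all genes). In old over young WT cells 6 of the 9 were above 0 (all genes: 45.4%), with a median of 0.29 (all genes: -0.01). That was the opposite direction to the 4 Id genes there. Msx2, at 520, 844 and 680, had a ratio of 0.75 and Msx1 of 0.48. Only 2 of the 9 reached a signal of 1000 on the brighter array, Dlx3 (0.22) and Gata2 (-0.74), so the contrast with the brighter Id genes rests mostly on dim genes. Gata2, a transcription factor of that list, read 1673, 968 and 606, with ratios of -0.74, -0.67 and -1.41, the order of Id1 and Id4.

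**Figure D3:**
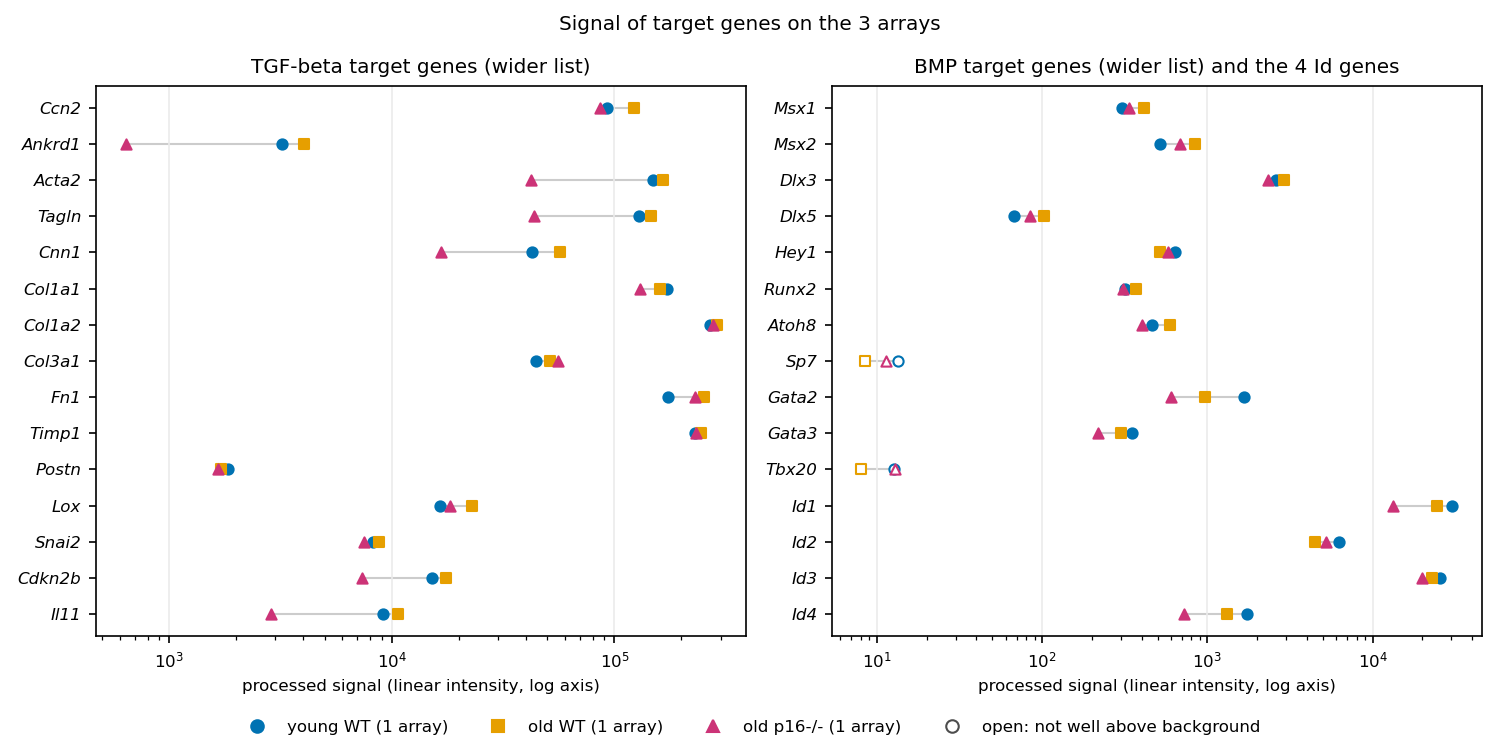
Processed signal (log axis) of 15 TGF-beta target genes on the left, and of 11 BMP target genes with the 4 Id genes on the right, on the 3 arrays, 1 array per group, with open symbols where not well above background. Ankrd1, Acta2, Tagln, Cnn1, Il11 and Cdkn2b lie at least 2-fold lower on the old p16-/- than the old WT array, and the collagens lie close together.

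Outside the target lists, Sostdc1, a secreted BMP antagonist, read 3767 in young WT, 911 in old WT and 440 in old p16-/- cells. It was lower at each step, with ratios of -2.0, -1.04 and -3.04, and its other probe gave -1.89, -1.21 and -3.10. Lrrc32, the GARP protein that docks latent TGF-beta on the cell surface, read 76078, 86815 and 23471 (0.24 and -1.88). Acvrl1, the type I receptor ALK1, read 1966, 1254 and 560 (-0.60, -1.15 and -1.75). Fbn2, a fibrillin of the matrix fibres that hold latent ligands, went the other way at 2069, 1369 and 4973 (-0.54 and 1.87), and its other probe gave 1.96 in the second comparison.

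Markers of other cell types also differed between the arrays. Of 8 smooth muscle and pericyte markers, 7 (young WT), 7 (old WT) and 5 (old p16-/-) were above background, with summed signals of 357161, 403257 and 149019. Des was not above background on any array, and Myh11 and Rgs5 were not above it in old p16-/- cells. Most of that sum came from Acta2, Tagln and Cnn1, while Cspg4 (0.61) and Mcam (0.35) were above 0 in old p16-/- over old WT cells. Of 12 macrophage markers 11, 11 and 6 were above background (sums 38247, 25256 and 17942), and Adgre1, Tyrobp, Lyz2, C1qa, C1qb and C1qc were not above it in old p16-/- cells. Itgam, at 19992, 19071 and 14934, made up much of those sums. Ptprc and Aif1 went the other way between the old arrays. Ptprc was above background in old p16-/- cells only, at 89.9, and Aif1 read 247, 74.9 and 186 (1.32). Of the 11 macrophage markers counted in old over young WT cells, 9 were at least 2-fold lower, with a median log2 ratio of -2.10. The sums of 7 cartilage and bone markers (4, 4 and 6 above background) were 5812, 11634 and 45377, of which Col2a1 gave 2580, 4376 and 42067. Comp went the other way between old p16-/- and old WT cells (-1.52), and 3 of the 6 counted there were below 0. The sums of 5 Schwann cell markers (4 on each array) were 1996, 3898 and 10928. The 6 epithelial markers, of which 5, 6 and 6 were above background, summed to 5040, 3266 and 7473. Krt14, at 3189, 1832 and 3239, made up much of those sums. Of this list Cdh1 alone was below 0 in old p16-/- over old WT cells (-0.96), while Krt8 (1.81) and Krt18 (2.11) were far above 0. The 5 endothelial markers (3, 4 and 3 above background) summed to 6567, 6578 and 6570. Kdr made up most of those sums, at 5830, 6041 and 6167, though its other probe gave -0.75, -0.49 and -1.24. Tek was lower at each step, at 577, 365 and 242, while Pecam1 differed little (0.06, 0.18 and 0.24). The 10 fibroblast markers summed to 978810, 1044316 and 946617. Within the fibroblast list Thy1 was far lower in old p16-/- cells, at 69467, 52045 and 3287 (-3.98 to old WT), and Pdgfra higher, at 651, 884 and 2682 (1.61). The part of these differences in the ratios of the members was not tested.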

How the data were processed

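RNA of 3 groups with 1 array each was measured on 1-colour Agilent microarrays (Cy3, 1 slide). Per the file headers, the authors' scanner files were made with Feature Extraction 11.5.1.1, and the processed signal is a linear intensity, background-subtracted and spatially detrended, not normalized between arrays. The same intensity stands in the deposited series value table for 39030 of 39030 probes spotted once (relative tolerance 0.0001), with column medians of 137, 135 and 132, unscaled and uncentred.

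Control spots (1377) were left out, and marked spots (246, 246 and 267) were left out of the probe levels. Log2 signals were averaged over spots of a probe and scaled to the 75th percentile of each array. That percentile was taken over all non-control spots, marked ones included. Of 39429 probes, 27508 were named through RefSeq accessions (table of assembly GRCm38.p6) and 11921 were not. A gene was its brightest probe; for a bound, the array above background was compared with the other array at the probe's level there or at the lowest level above background there, whichever was higher. All 39 members are accounted for, and up to 12 genes of the wider lists were named, those with the largest ratios among genes at least 2-fold apart, measured on both arrays and with a signal of at least 1000; some of these are not reported here. The members, lists and alternatives were chosen with earlier results of these data known. With 1 array per group no test was run. The scripts were tested on simulated data with planted folds. The alternatives were normexp with an offset of 50, quantile normalization, cyclic loess, median centring, marked spots kept, other filters, the mean over probes, means in place of medians, shared genes added to the arms, and the deposited value table. Where shared genes were added, Acvr2a and Smad7 joined the TGF-beta arm only, Gdf10 the BMP arm only, and Smad4 both. Normexp used median in place of mean spot intensity. Software was R 4.3.3 with limma 3.58.1, and Python 3.11.15 with pandas 2.3.3 and numpy 2.4.6.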

Additional observations from a re-analysis of the deposited data

How the results depend on the processing

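No paired analysis was possible because each group has 1 array and the labels give no replicate numbers. Of the recomputed summaries over the members, 180 stayed within the tolerance used and 21 moved. Of 1130 ratios of single members, 1074 moved by at most 0.0796 (the technical SD of a ratio) and 0 that lay past 2-fold changed sign. Part of these ratios could not move by construction, so the count overstates how stable they are. The filters keep or drop a measured ratio without changing it, and the deposited table holds the same intensities for probes spotted once. For 26 members with 1 probe, the mean over probes changes nothing.

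In old over young WT cells, the 4 members at least 2-fold higher became 2 under normexp and 2 under the filter at a signal of 1000. The median of all members, -0.04, became a mean of 0.16, and that of the BMP arm, -0.06, a mean of 0.22. The TGF-beta arm's median moved from 0.10 to -0.05 with the shared genes added, and the difference of the arms from -0.16 to 0.00 (shared genes added) and 0.05 (means). In old p16-/- over old WT cells, the 1 member higher became 0 under the filter at 1000, the median of all members -0.12 became a mean of -0.23, and the TGF-beta arm moved from -0.18 to -0.26 (quantile normalization), -0.27 (cyclic loess) and -0.49 (mean). The BMP arm moved from -0.04 to -0.12 under that filter, and the difference from 0.14 to 0.06 there and to 0.44 with means. In old p16-/- over young WT cells, the 4 members higher became 2 under normexp, 2 with both arrays above background and 1 under the filter at 1000; means gave -0.31 for the TGF-beta arm, 0.18 for the BMP arm and 0.49 for their difference. The stricter filters count fewer genes, and means weigh single far genes; the other causes were not tested.

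Over all genes, normexp lowered the genes at least 2-fold higher and lower from 421 and 468 to 249 and 275 in old over young WT cells, from 878 and 957 to 566 and 650 in old p16-/- over old WT cells, and from 908 and 992 to 593 and 715 in old p16-/- over young WT cells. Asking for both arrays above background gave 234 and 225, 564 and 656, and 564 and 646 in the same order, and the filter at a signal of 1000 gave 101 and 50, 239 and 368, and 303 and 371. In old over young WT cells that filter left 66.9% of them higher in place of 47.4%. With no filter there were 895 and 795, 1317 and 1596, and 1444 and 1502. Without it Bmp7 was at 2.23 in old over young WT cells, and Gdf10 was at -1.96 in old p16-/- over old WT cells, each against a signal not above background.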
